A study of Mus musculus with 35 samples.

Results

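The small RNA libraries of male mouse germ cells were searched for fragments that reach the 3′ end of a tRNA, either with the added CCA tail (CCA ends) or at the end encoded in the genome (3′ ends). In the deposited table of tRNA fragments, each entry joins a tRNA, named by its amino acid and anticodon, with the end that its reads covered, and 137 of the 284 entries carried a CCA-end or 3′-end label. Of these, 71 were CCA ends and 66 were 3′ ends, and 72 had at least 10 counts in at least 3 of the 16 libraries and entered the tests. The 72 tested entries were 70 CCA ends and 2 3′ ends, of which 50 belonged to nuclear and 22 to mitochondrial tRNAs of 22 amino acid classes. The remaining 65 entries together held 836 of 576085 counts (0.145%), and each of them had between 1 and 75 counts over all libraries. At the limit, the mitochondrial Gly-TCC 3′ end (82 counts, 3 libraries with 10 or more) was just inside and the mitochondrial Leu-TAA 3′ end (75 counts, 2 such libraries) was just outside. The Gly-TCC 3′ end passed only through CTRL Spc 1, 4 and 5 (11 counts in each), so wherever CTRL Spc enters a comparison its level is a description, and its call, though counted, supports nothing.

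SMG6 is the endonuclease of nonsense-mediated mRNA decay. The Smg6-cKO mice were Smg6(fx/fx);Ngn3Cre+, so that Smg6 exon 9 was deleted by a Cre driven by the Ngn3 promoter in the germ line, while the controls (CTRL) were littermates without Cre, either Smg6(fx/fx);Ngn3Cre- or Smg6(fx/wt);Ngn3Cre-, and so carried floxed alleles too, all on a mixed C57Bl/6J and SV129 background. Pachytene spermatocytes (Spc) and round spermatids (RS) were obtained by sedimentation in a BSA gradient, which enriches cells and does not purify them. By the labels each sample was both testes of 1 adult mouse, whereas the study's methods name more testes than 1 mouse has for an isolation, so whether a library is 1 animal or a pool is not settled. There were 5 Smg6-cKO and 5 CTRL libraries of Spc and 3 and 3 of RS, although the study's methods describe the same samples as for RNA-seq, which had 3 per group, so that p-values over 5 Spc libraries hold only if these were separate animals or pools. Libraries are numbered here in the order of the table within each group, which is no pairing between groups.

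A tRNA precursor is trimmed at its 5′ end by RNase P and at its 3′ end by the tRNase Z enzyme ELAC2, and the CCA to which the amino acid is later bound is then added by TRNT1 without a template. A fragment with a CCA end therefore comes from a tRNA that had been matured at its 3′ end, and it holds the 3′ side of the acceptor stem and, as far as its length reaches, the T arm. Ribonucleases such as angiogenin cut tRNAs in the anticodon loop, fragments of tRNAs are abundant in sperm, and those known best there come from the 5′ side of Glu and Gly tRNAs.

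The 3′ ends of tRNAs differ little between relatives, which decides what an entry can tell apart. The last 24 bases encoded in the genome, before the added CCA, are shown from RefSeq tRNA genes of GRCm38.p6 (mm10), where 68 of the 72 tested entries had a gene. The table gives no fragment lengths, and the authors mapped to GtRNAdb sequences. Glu-TTC, Glu-CTC, Gly-GCC, Gly-CCC and Asp-GTC are shown first. Their CCA ends were called in both comparisons with CTRL RS and in the interaction between genotype and stage. Capitals mark bases that differ from the first sequence of a set.
Glu-TTC: cgggttcgactcccggtgtgggaa
Glu-TTC (form 2): cgggttcgactcccggtAtgggaa
Glu-TTC (form 3): cgggttcgaTtcccggtCAgggaa
Glu-CTC: cgggttcgaTtcccggtCAgggaa
Gly-GCC: cgggttcgattcccggccaatgca
Gly-CCC: cgggttcgattcccggccaatgca
Asp-GTC: GgggttcgattcccCgAcGGGgAG
The Glu-TTC genes had 3 such ends, the first in 4 of 8 genes (for example chr7:58399315-58399386, plus strand), the second in 2 (chr1:34434812-34434883, minus strand) and the last in 2 (chr3:96346675-96346746, plus strand). The last was the same as the commonest end of Glu-CTC, found in 10 of its 12 genes (chr1:171064164-171064235, minus strand), so that a short fragment of it fits both tRNAs. Gly-GCC (8 of 14 genes, chr1:171044985-171045055, plus strand) and Gly-CCC (4 of 6, chr3:96351167-96351237, minus strand) also shared their commonest end, and their CCA-end counts differed by 4.59% in total, while Asp-GTC (13 of 16, chr1:171037029-171037100, minus strand) differed from them at 8 of the 24 bases.

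The ends of the most abundant entries and of those called in Spc follow, because some of them are equally shared.
Ala-TGC: cgggttcgattcccggcatctcca
Ala-CGC: cgggttcgaCtcccggcatctcca
Val-CAC: ccggttcgaaaccgggcggaaaca
Val-AAC: ccggttcgaaaccgggcggaaaca
Gly-ACC: ccggttcgaaaccgggcggaaaca
Leu-CAG: tgggttcgaatcccactcctgaca
Leu-CAA: tgggttcgaatcccactTctgaca
Gln-CTG: cgagttcaaatctcggtgggacct
Gln-TTG: cgagttcaaatctcggtgggacct
Val-CAC (chr1:171111443-171111515, plus strand), Val-AAC (chr3:30601270-30601342, plus strand) and the single Gly-ACC gene (chr11:48823728-48823801, plus strand) had the same end, and so had Gln-CTG (chr3:96341156-96341227, minus strand) and Gln-TTG (chr11:95859172-95859243, minus strand). The commonest ends of Ala-TGC (chrX:136380747-136380818, plus strand) and Ala-CGC (chrX:136379366-136379437, minus strand) differed at 1 base, as did those of Leu-CAG (chr1:171065984-171066066, plus strand) and Leu-CAA (chr11:58302474-58302580, minus strand). Mitochondrial tRNAs are encoded once each, and the 3 whose CCA end was called higher in Smg6-cKO RS are shown.
mt-Val-TAC: tttcatgaccaatgaacactctga
mt-Glu-TTC: gcagttgaatgctgtgtagaaata
mt-Trp-TCA: gaaaacacacaagtttaacttctg
They lie at chrM:1025-1093 (plus strand), chrM:14071-14139 (minus strand) and chrM:4950-5016 (plus strand). In 10 pairs of tested nuclear entries the total counts differed by at most 10%, and the commonest forms shared an unbroken run of 14 to 24 bases at the 3′ end of the 24 examined, among them the 3 Pro anticodons, Leu-AAG with Leu-TAG, and Phe-GAA with Ser-GGA. Judged by these counts and ends, such entries hold largely the same reads and are not separate observations, although single reads could not be traced.

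The CCA ends were dominated by few tRNAs. The 12 most abundant entries held 80.7% of the counts, led by Ala-TGC with a mean of 5139 normalized counts (13.8% of the counts), followed by Ala-CGC (4842), Val-CAC (3613), Val-AAC (3613), Gly-ACC (3506), Leu-CAG (2917) and Leu-CAA (2333). Among the 12, Ala-TGC and Ala-CGC, Gly-CCC and Gly-GCC, and Val-CAC, Val-AAC and Gly-ACC are near-identical sets. These percentages are therefore of counts, in which shared reads can enter more than once. Normalized counts are scaled by TMM to a common library size over all 185 tested entries of the table. Ala-TGC had 6338, 5707 and 5240 in CTRL RS 1, 2 and 3 and 3494, 3034 and 5896 in Smg6-cKO RS, so that the groups overlapped, and its log2 fold change in RS was -0.48 ± 0.24 (SE, adjusted p = 0.165). No genotype difference of the Ala-TGC, Ala-CGC, Val-CAC, Leu-CAG or Leu-CAA CCA ends passed the test in either cell type.

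The libraries held 37315 to 105677 counts on tRNA fragments and 120483 to 306864 on miRNAs. All 16 carried the germ cell miRNAs of the miR-34b/c and miR-449 family, whose summed level was 381293 to 412039 CPM (reads scaled to a common total of miRNA counts) in CTRL RS, 209311 to 256269 in Smg6-cKO RS, 186983 to 252371 in CTRL Spc and 216457 to 378684 in Smg6-cKO Spc. Blood cell miRNAs (3 of 3 listed were found) summed to 16869, 7550 and 21841 CPM in Smg6-cKO RS 1, 2 and 3, against 5096 to 5328 in CTRL RS, and to 17396 in Smg6-cKO Spc 2, against 4038 to 6700 in the other 4 Smg6-cKO Spc and 2634 to 3796 in CTRL Spc. Smooth muscle miRNAs were 8421, 978 and 5484 CPM in Smg6-cKO RS and 635 to 847 in CTRL RS, and 1726 to 4798 in Smg6-cKO Spc and 275 to 700 in CTRL Spc, without overlap. Muscle miRNAs (53.1 to 1282 CPM against 4.05 to 32.3 in Spc, 84.2 to 290 against 6.54 to 49.4 in RS) also lay higher in all Smg6-cKO libraries, as did endothelial ones in RS (945 to 1784 against 360 to 482) but not in Spc (581 to 1862 against 192 to 813). Erythroid miRNAs overlapped in both (12.9 to 1620 against 45.8 to 71.7 in RS, 6.16 to 1561 against 0 to 43.1 in Spc), and results are also given without Smg6-cKO RS 1 and 3 and Spc 2. In the RNA-seq libraries (3 per group), mRNAs of late spermatids were low in Smg6-cKO RS, with a log2 fold change of -4.67 for Tnp1 and -5.00 for Prm1, and the macrophage gene Csf1r was 3.45 higher on that scale. The spermatid genes Acrv1 (-1.62) and Spaca1 (-1.46) were lower by less. Of the spermatocyte genes in RS, Sycp3 (0.83) and Hormad1 (1.07) were called higher and Spo11 (-0.41) lower, and Sycp1 (0.12, adjusted p = 0.299) did not pass. In Smg6-cKO Spc, Tnp1 had -3.21, Prm1 -3.65 and Csf1r 2.01, the Leydig cell gene Insl3 had 2.01, and the Sertoli cell genes Sox9 and Wt1 had -2.53 and -2.55, all called. The Leydig genes Star (adjusted p = 0.0593) and Cyp17a1 (adjusted p = 0.0669) did not pass there, nor did Acrv1, Spaca1 and the spermatocyte genes. In RS Sox9 (1.35) and Wt1 (1.24) were called higher. Of the smooth muscle mRNAs, Myh11 was lower in RS (-0.94, adjusted p = 0.0185), Acta2 had 0.40 there (adjusted p = 0.108), and neither passed in Spc, unlike the smooth muscle miRNAs, which lay higher in Smg6-cKO. The whole-gene level of Smg6 did not pass the test in Spc (0.22, adjusted p = 0.352) or RS (0.05, adjusted p = 0.798), a count that does not check the loss of a single exon. In such bulk samples fewer cells of a type and less RNA per cell cannot be told apart, and the part of other cells in the results below was not tested.

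CCA-end and 3′-end entries held most tRNA counts in 15 of the 16 libraries. These are counts and not reads, since near-identical entries each add in full. Val-CAC, Val-AAC and Gly-ACC, for example, had 55768, 55764 and 54084 CCA-end counts over all libraries. Shares with 1 entry per near-identical set were not computed, so whether most reads came from the 3′ side is not shown. CCA ends and 3′ ends together were 53.8%, 51.9% and 45.7% of all tRNA counts in CTRL RS 1, 2 and 3, and 60.8%, 59.7% and 65.0% in Smg6-cKO RS. In Spc they ranged from 59.7% to 63.6% (median 61.2%) in CTRL and from 60.1% to 68.2% (median 65.1%) in Smg6-cKO. The CTRL RS libraries thus lay below all 13 others. Nearly all of this came from CCA ends, since 3′ ends alone were 0.0583% to 0.15%.

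**Figure D1:**
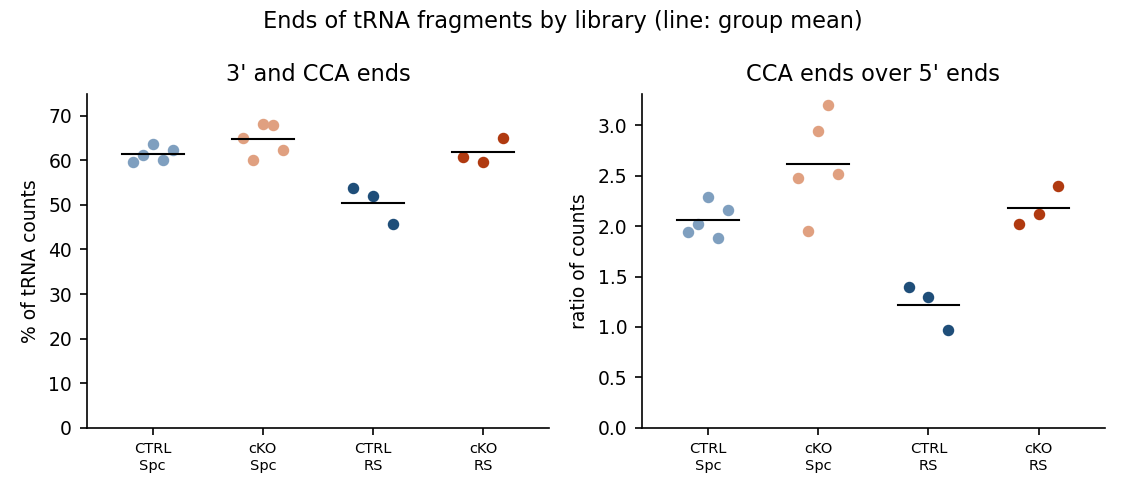
Share of tRNA counts on 3′ and CCA ends in percent (left) and counts on CCA ends over counts on 5′ ends (right) for each of the 16 libraries, with a line at each group mean. CTRL RS lies lowest in both plots, with means of 50.5% and 1.22 against 61.8% and 2.18 in Smg6-cKO RS. Near-identical entries each add in full, so these are counts and not reads.

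The mean share was 50.5% ± 4.24 (SD, n = 3) in CTRL RS and 61.8% ± 2.78 (n = 3) in Smg6-cKO RS, a difference of 11.3 percentage points (exact permutation test, two-sided, p = 0.1, the smallest that 3 against 3 allows). CTRL RS differed from CTRL Spc (61.3% ± 1.63, n = 5) by -10.8 points (exact permutation test, p = 0.0357, the smallest possible, adjusted 0.159 over 16 comparisons), and Smg6-cKO RS differed from Smg6-cKO Spc by -2.89 points (exact permutation test, p = 0.25). In Spc the Smg6-cKO share was 3.37 points above CTRL (exact permutation test, p = 0.0952), and 4.53 points without Smg6-cKO Spc 2 (p = 0.0476, exact). None of the 16 comparisons of shares and ratios passed the adjustment.

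Control germ cells differed in many CCA ends between the 2 stages, in about the same share as in tRNA fragments of all kinds. The CCA ends of Glu, Asp, selenocysteine and some Gly tRNAs were called higher in CTRL RS than in CTRL Spc, and many mitochondrial ones were called lower. Of the 72 entries, 15 were called higher and 18 lower at an adjusted p of at most 0.05, where 22.2% and 24.3% of all 185 tested entries were called. All 15 higher entries were nuclear, as were 5 of the lower ones, and 13 of 22 mitochondrial entries were lower and none higher. The median log2 fold change was 0.20 over the nuclear and -1.54 over the mitochondrial entries, and -0.09 over all 185. With library size alone the nuclear median turned to -0.17, and with miRNA scaling it was 0.54, while the mitochondrial one stayed negative (-1.92 and -1.26).

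Glu-TTC, which reads GAA codons, had 429 to 674 normalized counts (median 476) in CTRL Spc and 2603, 2432 and 2162 in CTRL RS, the largest rise by log2 fold change (2.07 ± 0.13 SE, adjusted p = 7.5e-11). Glu-CTC had 81.3 to 99.4 (median 87.8) in CTRL Spc and 255, 286 and 280 in CTRL RS (1.47 ± 0.13, adjusted p = 1.3e-08). Asp-GTC had 188 to 247 (median 235) and then 617, 527 and 554 (1.18 ± 0.12, adjusted p = 1.3e-07). For each of these acceptors of acidic amino acids the CTRL groups did not overlap.

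Gly-GCC rose from 646 to 758 (median 726) in CTRL Spc to 1559, 1416 and 1375 in CTRL RS (0.90 ± 0.10, adjusted p = 3.3e-07), and Gly-CCC, with which it shares reads, by 0.89. The selenocysteine tRNA SeC-TCA, which decodes UGA in selenoprotein mRNAs, was rare, with 3.8 to 14.0 and then 15.9, 23.0 and 35.1 counts (1.49 ± 0.41, adjusted p = 0.0057). The initiator tRNA iMet-CAT, which starts translation, had 77.7 to 150 (median 119) in CTRL Spc and 189, 178 and 196 in CTRL RS (0.56 ± 0.17, adjusted p = 0.0104). Without CTRL RS 3 the calls of SeC-TCA (adjusted p = 0.1) and iMet-CAT (adjusted p = 0.058) were lost, and that of iMet-CAT also with library size alone in place of TMM (0.19, adjusted p = 0.395). Besides these, Leu-CAG, Leu-CAA, Gly-TCC, Thr-TGT, Trp-CCA and 3 Ser anticodons were higher, by 0.33 to 0.55, but all 8 lost their calls with library size alone in place of TMM, and all but Ser-GCT and Ser-TGA also without 1 or another CTRL library.

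The nuclear entries that fell were Ile-AAT (-0.99 ± 0.17, adjusted p = 4.8e-05), Ala-AGC (-0.86 ± 0.16), Cys-GCA, Ser-GGA and Phe-GAA. Ile-AAT went from 177 to 271 (median 209) in CTRL Spc to 123, 146 and 88.3 in CTRL RS, and Ala-AGC from 737 to 1269 (median 1123) to 613, 678 and 554. These groups did not overlap either, and both entries kept their calls in all 14 alternatives, whereas Cys-GCA was called in 10 of 14, Ser-GGA in 7 of 13 and Phe-GAA in 4 of 14 alternatives. These 3 lost their calls with miRNA scaling and in 3, 4 and 6 of 8 fits with 1 library left out, and Ser-GGA and Phe-GAA also with DESeq2.

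Among the mitochondrial tRNAs, which serve the translation of proteins encoded by mitochondrial DNA, mt-Val-TAC fell from 74.9 to 103 (median 80.7) in CTRL Spc to 15.9, 21.1 and 38.7 in CTRL RS (-1.82 ± 0.27, adjusted p = 8.0e-06). mt-Glu-TTC fell from 69.9 to 105 (median 87.1) to 29.8, 32.6 and 32.7 (-1.60 ± 0.22, adjusted p = 4.7e-06). The mitochondrial share of all CCA-end and 3′-end counts was 0.690%, 0.820% and 1.06% in CTRL RS and 1.73% to 2.75% in CTRL Spc. The mitochondrial Gly-TCC 3′ end had no count in CTRL RS and 7.56 to 14.5 normalized counts in CTRL Spc, the group through which it passed the filter. With TMM replaced by library size alone the split became 6 higher and 37 lower (median of all entries -0.46), and with scaling by miRNAs 25 and 14 (median 0.23). Under these scalings only Leu-CAG (library size) and Phe-GAA (miRNAs) changed sign among the 33 called entries, and mt-His-GTG (-0.66) lost its call with miRNA scaling or without CTRL RS 1.

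Smg6-cKO RS lacked the high Glu, Asp, Gly-GCC and Gly-CCC CCA ends of CTRL RS. Compared with CTRL RS, 8 of the 72 entries were lower and 4 higher, where 11.4% and 10.8% of all 185 tested entries were called. All 8 lower entries were nuclear (Glu-TTC, Glu-CTC, Asp-GTC, Gly-GCC, Gly-CCC, iMet-CAT, SeC-TCA and Val-TAC), and all 4 higher entries were mitochondrial. This comparison and the one above share the CTRL RS libraries, so the values are given side by side and not as 2 independent results.

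Glu-TTC had 309, 231 and 252 normalized counts in Smg6-cKO RS against 2603, 2432 and 2162 in CTRL RS (log2 fold change -3.18 ± 0.24 SE, adjusted p = 9.5e-09). It made up 1.01%, 0.658% and 0.663% of the 3′-side counts in Smg6-cKO RS and 5.65%, 5.48% and 5.37% in CTRL RS. Glu-CTC had 82.4, 68.8 and 67.5 against 255, 286 and 280 (-1.90 ± 0.27, adjusted p = 3.1e-05). Asp-GTC had 198, 82.5 and 138 against 617, 527 and 554 (-2.0 ± 0.30, adjusted p = 4.9e-05). In each case every Smg6-cKO RS library lay below every CTRL RS library by a wide gap.

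Gly-GCC had 517, 485 and 690 against 1559, 1416 and 1375 (-1.36 ± 0.24, adjusted p = 0.00021), and Gly-CCC, which holds many of the same reads, had -1.39. iMet-CAT had 41.9, 68.8 and 28.2 against 189, 178 and 196 (-2.06 ± 0.32, adjusted p = 8.6e-05). SeC-TCA had 9.6, 5.5 and 2.8 against 15.9, 23.0 and 35.1 (-2.09 ± 0.50, adjusted p = 0.0046), a call that was lost without CTRL RS 3 (adjusted p = 0.0847). Val-TAC, at 51.5, 41.3 and 45.4 against 115, 65.2 and 139, had -1.21 ± 0.31 (adjusted p = 0.0083), the closest pair of groups among the 8. Its call was also lost without CTRL RS 3 (adjusted p = 0.0847), with library size alone (adjusted p = 0.172) and with miRNA scaling.

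**Figure D2:**
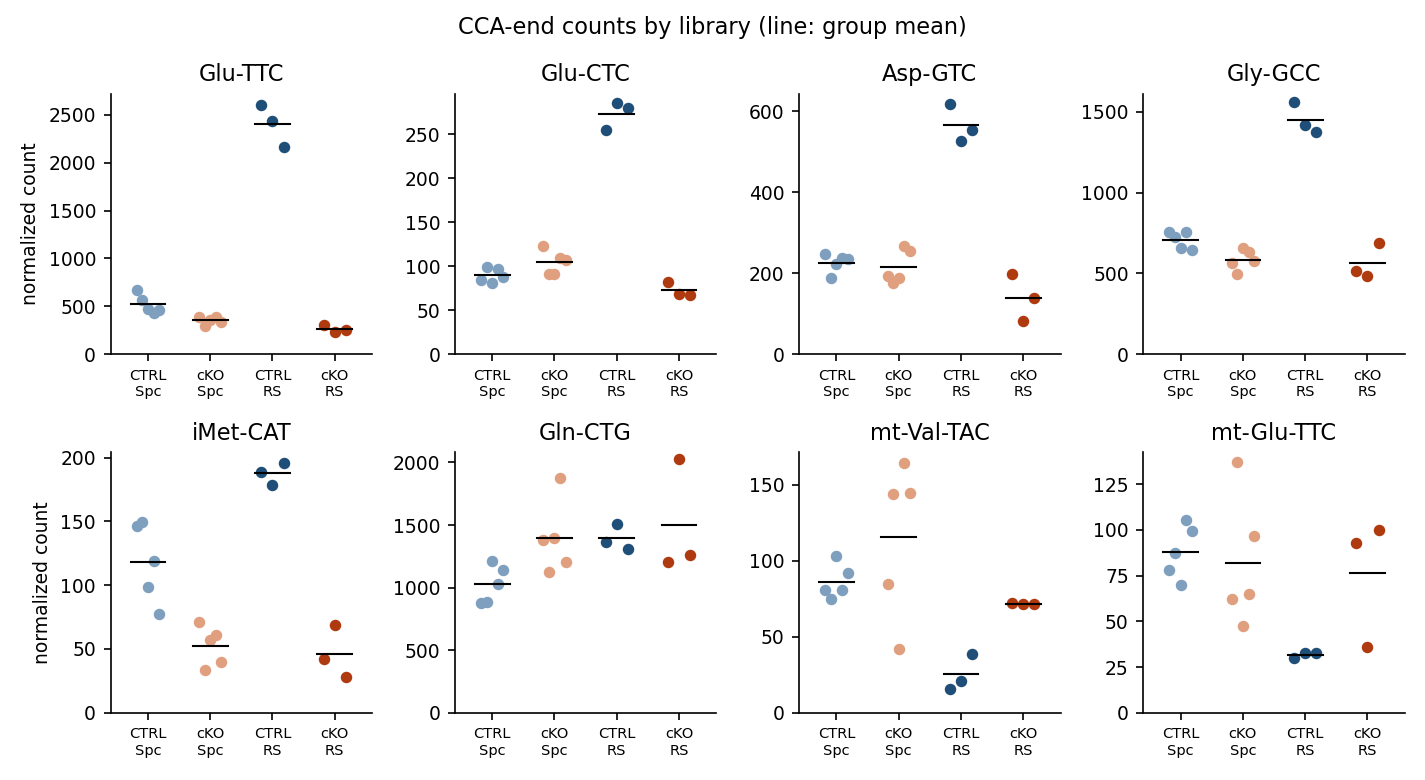
Normalized CCA-end counts of 8 tRNAs in the 16 libraries, with a line at each group mean and a separate linear axis from 0 for each tRNA. Glu-TTC, Glu-CTC, Asp-GTC and Gly-GCC are high in CTRL RS only, iMet-CAT is low in both Smg6-cKO groups, and mt-Val-TAC and mt-Glu-TTC are lowest in CTRL RS.

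Over the mitochondrial entries the median log2 fold change in RS was 0.73, against -0.14 for the nuclear ones and -0.02 for all 185 entries. The nuclear median changed sign with library size alone (0.49) and with miRNA scaling (0.12), while the mitochondrial one stayed positive (1.39 and 1.06). mt-Val-TAC had 72.1, 71.5 and 71.3 in Smg6-cKO RS against 15.9, 21.1 and 38.7 in CTRL RS (1.44 ± 0.34, adjusted p = 0.0039) and kept its call in all 13 alternatives. mt-Trp-TCA had 59.0, 57.8 and 22.1 against 21.9, 21.1 and 18.2 (1.16 ± 0.40, adjusted p = 0.0414), a call lost without Smg6-cKO RS 1, CTRL RS 2 or CTRL RS 3 (adjusted p up to 0.17). mt-Glu-TTC had 92.7, 35.8 and 100.1 against 29.8, 32.6 and 32.7 (1.29 ± 0.36, adjusted p = 0.0148), which was lost without Smg6-cKO RS 3 or CTRL RS 3 (adjusted p up to 0.095). Smg6-cKO RS 2 stood close to CTRL for mt-Glu-TTC, Smg6-cKO RS 3 for mt-Trp-TCA, and no library for mt-Val-TAC.

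The mitochondrial Gly-TCC 3′ end, at 3.43, 6.88 and 4.42 normalized counts in Smg6-cKO RS and 0 in all 3 CTRL RS libraries, was at least 2.78-fold higher against the limit of 3 counts over the CTRL RS group, and its call was lost in 4 of 6 fits with 1 library left out (Smg6-cKO RS 3 or any CTRL RS library, adjusted p up to 0.131). Without Smg6-cKO RS 1 and 3 the mt-Glu-TTC difference fell to 0.23 (adjusted p = 0.698), in a fit with 1 Smg6-cKO RS library left, whose spread had to be assumed equal to that of CTRL RS. The same fit called 4 entries higher and 14 lower. With library size alone 26 entries were higher and 7 lower, as the median of all 185 entries moved from -0.02 to 0.59, yet none of the 12 called entries changed sign under any scaling. Without Smg6-cKO RS 2 the calls were 9 higher and 11 lower.

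**Figure D3:**
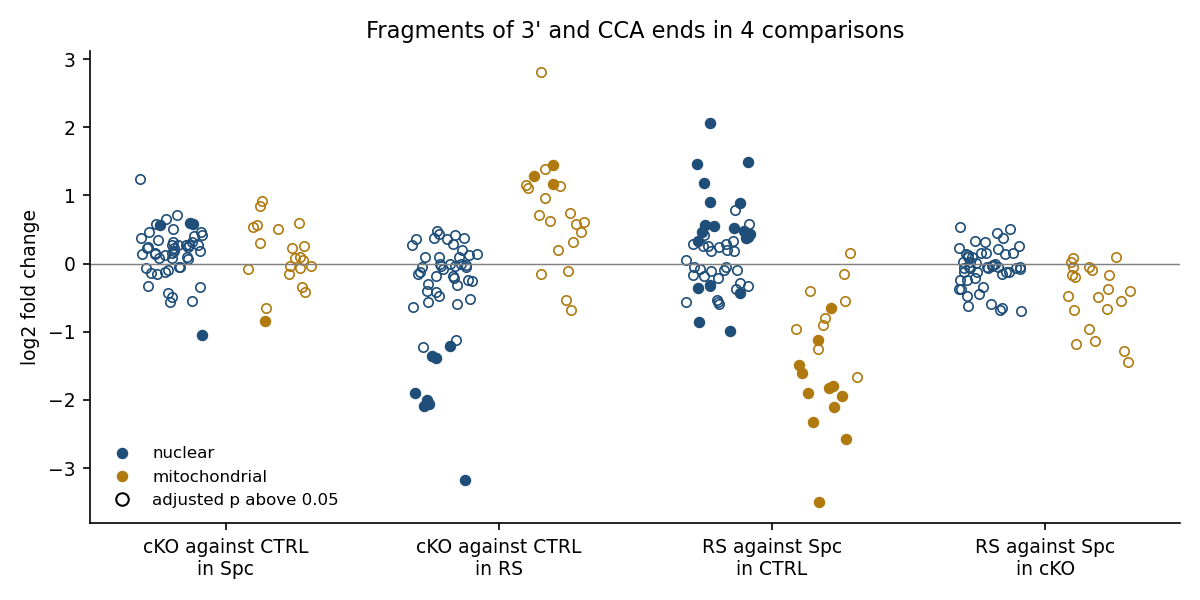
Log2 fold changes of the tested 3′-end and CCA-end entries of nuclear and mitochondrial tRNAs in 4 comparisons, each point 1 entry and filled where the adjusted p was at most 0.05 (the mitochondrial Gly-TCC 3′ end, at 0 in CTRL RS, is left out). Between the genotypes in RS the filled nuclear points lie below 0 and the filled mitochondrial points above it, between the CTRL stages 15 filled nuclear points lie above 0 and 5 below with all filled mitochondrial points below, and no point is filled for RS against Spc in Smg6-cKO.

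In Smg6-cKO mice the 2 stages did not differ in any entry by the edgeR test. None of the 72 entries and 0% of the 185 were called between Smg6-cKO RS and Smg6-cKO Spc. DESeq2 called 0, and 4 of the 72, all mitochondrial (mt-Gly-TCC, mt-Leu-TAA, mt-Leu-TAG and mt-Met-CAT, at -1.13 to -1.44), had an unadjusted p under 0.05, the lowest adjusted p being 0.289. Glu-TTC had 295 to 388 (median 355) in Smg6-cKO Spc and 231, 252 and 309 in Smg6-cKO RS, a log2 fold change of -0.38 ± 0.21 (adjusted p = 0.505) with overlapping ranges. A missed threshold does not show that the stages were alike. In simulated counts of this design a share of 0.946 of the changed entries was recovered, and a share of 0.0789 of the calls was false. How recovery depends on the size of a difference was not tested.

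The difference between the genotype effects of the 2 stages was tested as an interaction over all 16 libraries. It was called for 6 lower and 2 higher of the 72 entries, with 7.03% of all entries called in each direction. The 6 lower were Glu-TTC (-2.62 ± 0.25, adjusted p = 8.2e-08), SeC-TCA (-2.34), Glu-CTC (-2.11), Asp-GTC (-1.94), Gly-CCC (-1.12) and Gly-GCC (-1.09), and the 2 higher were mt-Pro-TGG (1.92 ± 0.58, adjusted p = 0.0261) and the mitochondrial Gly-TCC 3′ end, selected through CTRL Spc. SeC-TCA lost this call without Smg6-cKO RS 3 or CTRL RS 3 (adjusted p up to 0.0901) and with library size alone, and mt-Pro-TGG without Smg6-cKO RS 3, CTRL RS 2 or CTRL RS 3 (adjusted p up to 0.121) and with miRNA scaling (adjusted p = 0.146). Both were also lost without Smg6-cKO RS 1 and 3 and Spc 2. The interaction of iMet-CAT, which was called lower in Smg6-cKO in both stages, did not pass the test (-0.87 ± 0.40, adjusted p = 0.147). The split was 10 higher and 5 lower with library size alone and 1 and 8 with miRNA scaling.

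In Spc the genotypes differed in few CCA ends. Of the 72 entries 3 were higher and 3 lower in Smg6-cKO Spc, with 3.78% and 6.49% of the 185 entries called in these directions, and the median log2 fold change was 0.17 over the 72 and 0.08 over all. iMet-CAT had 33.7 to 70.9 (median 57.1) in Smg6-cKO Spc and 77.7 to 150 (median 119) in CTRL Spc, with no overlap (-1.05 ± 0.22 SE, adjusted p = 0.0057). mt-Leu-TAA had 16.9 to 38.0 (median 17.9) against 37.8 to 52.4 (median 42.2), ranges that just overlapped, and fell by 0.84 on the log2 scale (adjusted p = 0.04), a call that was kept in only 1 of 10 fits with 1 library left out (without Smg6-cKO Spc 4, adjusted p up to 0.101 in the others). The mitochondrial Gly-TCC 3′ end, with 2.83 to 3.57 against 7.56 to 14.5 counts, was the third entry called lower, but it entered the test only through CTRL Spc libraries.

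The 3 higher entries were Gln-CTG, Gln-TTG and Thr-TGT. Gln-CTG had 1125 to 1877 (median 1382) in Smg6-cKO Spc and 875 to 1209 (median 1025) in CTRL Spc, which overlapped (0.57 ± 0.16, adjusted p = 0.0304), and Gln-TTG and Thr-TGT had 0.59 each. Without CTRL Spc 1, 2 or 4 or Smg6-cKO Spc 4 none of these 3 was called, and Gln-TTG was also lost without CTRL Spc 5. iMet-CAT kept its call in all 10 fits with 1 library left out. The scaling weighed heavily in Spc: with miRNAs as the scale 37 entries were higher and 1 lower, the median of all entries moved from 0.08 to 0.66, and iMet-CAT lost its call (-0.50, adjusted p = 0.124). DESeq2 called 3 higher and 6 lower. Without Smg6-cKO Spc 2 the edgeR calls stayed at 3 and 3 in number.

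Glu, Asp and Gly CCA ends did not pass the test in Spc, where Glu-TTC had 295 to 388 (median 355) in Smg6-cKO and 429 to 674 (median 476) in CTRL (-0.43 ± 0.14, adjusted p = 0.0688). The 2 Glu-TTC groups did not overlap, and the interaction test above compares this difference with that in RS.

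CCA ends and 5′ ends of the same tRNA did not go together for all tRNAs. Over all libraries, 30 of 45 anticodons with both ends tested had more counts on their CCA end and 15 more on their 5′ end, from 0.0216 CCA-end counts per 5′-end count for mt-Ser-GCT and 0.0223 for Glu-CTC to 89.8 for Ala-CGC. Asp-GTC (0.0863) and Lys-CTT (0.0652) were 5′-rich like Glu-CTC, Glu-TTC (0.392) and Gly-GCC (0.752) stood between, and Leu-CAA (64.0) and Ala-TGC (50.3) were nearly all CCA ends. Pooled over all libraries, 6 of the 8 tRNAs whose CCA end was lower in Smg6-cKO RS had fewer CCA ends than 5′ ends (Val-TAC at 0.872 and SeC-TCA at 0.277 among them). Gly-CCC (6.16) and iMet-CAT (1.18) had more. By library the ratio ran from 0.441 to 1.90 for Gly-GCC, 0.282 to 3.87 for Val-TAC and 0.542 to 1.85 for iMet-CAT. The count of 6 therefore does not hold within each group, and Gly-GCC had more CCA ends than 5′ ends in all CTRL RS libraries.

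In RS, the 5′ end of Glu-TTC was lower in Smg6-cKO by 1.16 on the log2 scale (-1.16 ± 0.29, adjusted p = 0.0068) where its CCA end had -3.18, and the 5′ end of Gly-GCC had 0.15 ± 0.24 (adjusted p = 0.695) where its CCA end had -1.36. For Glu-CTC (-2.13) and Asp-GTC (-2.32, adjusted p = 2.7e-07) the 5′ ends fell like the CCA ends, and the 5′ end of iMet-CAT had -1.72. The ratio of both ends within a library does not depend on the scaling. For Glu-TTC it was 0.837, 0.717 and 0.563 in CTRL RS and 0.302, 0.0913 and 0.234 in Smg6-cKO RS, and for Gly-GCC 1.90, 1.76 and 1.42 against 0.523, 0.643 and 0.607. The 3 CTRL RS libraries lay above all 13 others for both tRNAs.

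**Figure D4:**
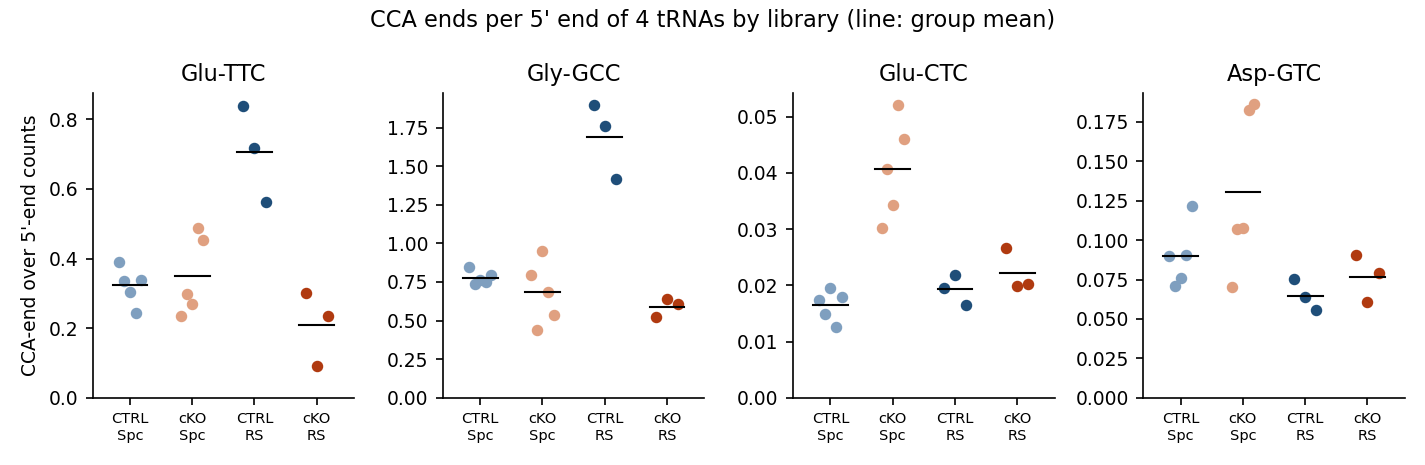
Counts on CCA ends divided by counts on 5′ ends for 4 tRNAs in each of the 16 libraries, with a line at each group mean and a linear axis from 0. Glu-TTC and Gly-GCC are highest in CTRL RS (means 0.706 and 1.69), while in RS Glu-CTC and Asp-GTC have similar means in both genotypes (0.0193 and 0.0223, 0.0648 and 0.0767).

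The mean ratio of Glu-TTC was 0.706 ± 0.138 (SD, n = 3) in CTRL RS and 0.209 ± 0.107 (n = 3) in Smg6-cKO RS (exact permutation test, two-sided, p = 0.1, the smallest possible), and 0.323 in CTRL Spc. That of Gly-GCC was 1.69 ± 0.248 and 0.591 ± 0.0617 (exact permutation test, p = 0.1), and 0.778 in CTRL Spc. The Glu-CTC ratio differed instead in Spc, at 0.0407 ± 0.00882 in Smg6-cKO and 0.0165 ± 0.0027 in CTRL (n = 5 each, exact permutation test, p = 0.00794, the smallest possible), and the Glu-CTC 5′ end was lower there (-0.94 ± 0.19, adjusted p = 0.0043). The ratio of Ala-TGC was lower in Smg6-cKO in both stages without overlap, at 31.2 against 76.0 in RS (exact permutation test, p = 0.1). In Spc it was 49.4 against 78.7 (exact permutation test, p = 0.00794). That of Val-CAC overlapped in both, at 1.96 against 1.62 in RS and 2.81 against 2.28 in Spc. None of the 48 comparisons of ratios and shares chosen after the values were seen passed the adjustment (lowest adjusted p = 0.122).

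Summed by amino acid, with nuclear and mitochondrial tRNAs apart, 45 sums of CCA or 3′ ends were tested among 110. In RS, 5 were lower (Glu -3.03, iMet -2.14, SeC -2.11, Asp -2.03 and Gly -0.57) and 3 higher (mt-Glu 1.29, mt-Val 1.42 and the mt-Gly 3′ end), with 14.5% and 13.6% of all sums called. In Spc, Gln (0.60) and Thr (0.54) were higher and iMet (-1.03) and the mt-Gly 3′ end (with the limit named above) lower, with 3.64% and 8.18% of all sums called. The Gly sum was lower in RS by less than the Gly-GCC and Gly-CCC entries, and it includes the more abundant Gly-ACC (-0.05 ± 0.21, adjusted p = 0.89), which shares its reads with Val.

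Between CTRL RS and CTRL Spc, 10 sums were higher and 14 lower (28.2% and 30.9% of all), among them Glu (2.10), SeC (1.57), Asp (1.27), iMet (0.66), Gln (0.40) and Gly (0.39) and, on the other side, mt-Leu (-2.37), mt-Val (-1.74), mt-Glu (-1.51) and nuclear Ile (-0.87). Between the Smg6-cKO stages 0 sums were called (0%; 0 by DESeq2, 2 at an unadjusted p under 0.05), and the interaction was called for 5 lower (Glu -2.71, SeC -2.47, Asp -2.07, Trp -0.68 and Gly -0.66) and 2 higher sums (1 of them the mt-Gly 3′ end), with 12.7% and 11.8% of all. Library size alone turned the split to 19 higher and 4 lower in RS, 3 and 26 between the CTRL stages and 8 and 2 for the interaction, and DESeq2 gave 4 and 4 in RS and 3 and 3 for the interaction. Summed by anticodon, which joins initiator and elongator Met, 71 sums of CCA or 3′ ends were tested among 182. In Spc 3 were higher and 3 lower (4.4% and 6.04% of all sums), in RS 2 and 8 (8.79% and 10.4%), between the CTRL stages 17 and 16 (23.6% in each direction), between the Smg6-cKO stages 0 (0%; 0 by DESeq2, 5 at an unadjusted p under 0.05), and for the interaction 2 and 6 (6.59% and 6.04%).

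Genes for the making, trimming, cutting and modification of tRNAs were read from the RNA-seq libraries, where 40 of 43 listed genes were tested. In Smg6-cKO RS 26 were higher and 6 lower than in CTRL RS, in a comparison where 38% and 33.3% of 18504 genes and repeat elements were called, and their median log2 fold change was 0.93 against 0.10 for all. In Spc 8 were higher and 1 lower, where 13.3% and 13% of 18323 were called, with a median of 0.15. With library size alone the split in RS was 34 and 1, and the median of all genes 0.65.

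For the 3′ end, Elac2 had 3119, 3056 and 3252 normalized counts in Smg6-cKO RS and 864, 971 and 804 in CTRL RS (log2 fold change 1.84 ± 0.10 SE, adjusted p = 1.5e-06), and in Spc 4704, 4151 and 3997 against 2160, 2535 and 2329 (0.87 ± 0.10, adjusted p = 0.0029). Trnt1, which adds the CCA, moved the other way, with 1879, 1991 and 2045 against 3662, 3092 and 3573 in RS (-0.80 ± 0.09, adjusted p = 0.0001) and -0.37 ± 0.10 in Spc (adjusted p = 0.0398). The groups did not overlap for either gene in either cell type. Elac1 (0.95) and Ssb (1.14), whose product La binds the ends of new tRNA precursors, were higher in RS and did not pass the test in Spc. The Trnt1 call in Spc was lost in 5 of 6 fits with 1 library left out, all but the one without Smg6-cKO 1 (adjusted p up to 0.125).

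All 7 tested genes listed under cleavage were higher in Smg6-cKO RS, led by Ang, which encodes angiogenin, with 49.5, 41.5 and 62.8 against 1.15, 1.25 and 3.81 normalized counts (4.57 ± 0.49, adjusted p = 7.7e-05). Slfn2 (4.19) and Rnase4 (3.63, which overlaps Ang so that their reads may be hard to separate) followed, and Dicer1 (1.5) and Rnh1 (1.09), the inhibitor of angiogenin, were also higher. The list thus holds regulators such as Slfn2 and Rnh1 beside nucleases, so its count does not tell whether cutting rose, which was not tested. In Spc, Ang (1.75), Slfn2 (2.02) and Rnase4 (1.97) were higher, and the Ang call was lost without Smg6-cKO 1, CTRL 2 or CTRL 3 (adjusted p up to 0.0576). Ang, Slfn2 and Rnase4 moved with genes of macrophages and Leydig cells: Lyz2 had 3.98, Cd68 3.34, Ptprc 3.03 and Insl3 4.46 in RS, and Csf1r had 2292, 1678 and 3141 against 203, 179 and 269, and their part in these differences was not tested.

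**Figure D5:**
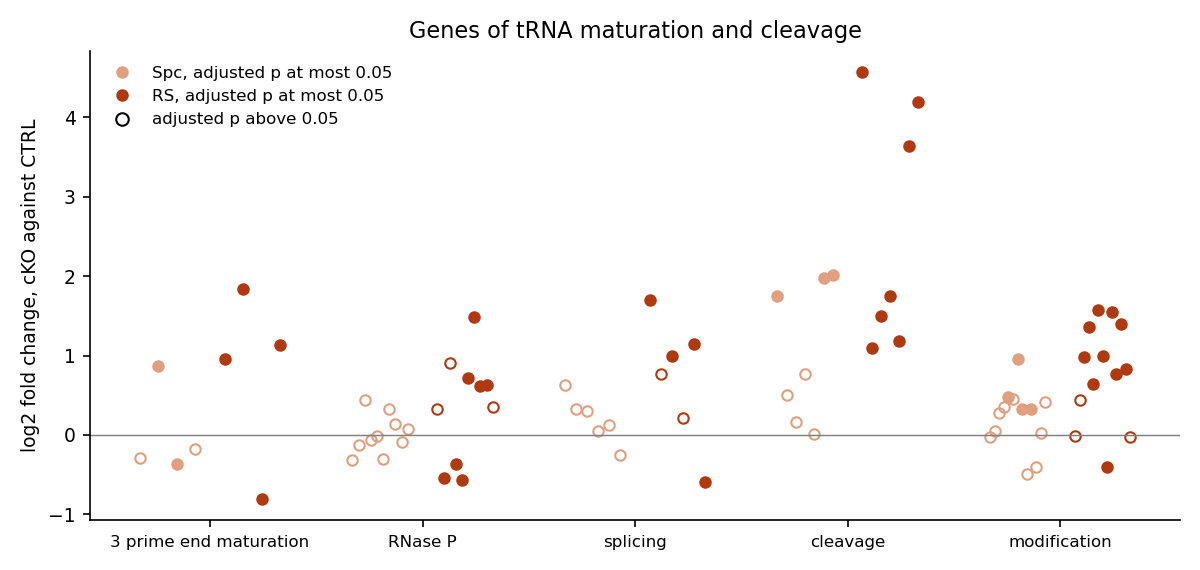
Log2 fold changes of 40 genes of tRNA maturation, cleavage and modification between Smg6-cKO and CTRL in Spc and RS (RNA-seq, 3 libraries per group), by role, each point 1 gene and filled where the adjusted p was at most 0.05. The genes listed under cleavage, which include the angiogenin inhibitor Rnh1, lie highest, with all 7 filled in RS. Trnt1 is the gene of 3′ end maturation below 0 in RS.

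RNase P, which trims 5′ ends, had 4 subunits higher (Pop1 1.49) and 3 lower (Rpp38 -0.56) of 10 in RS and none called in Spc. Among the splicing genes Clp1, which encodes an RNA kinase, was lower in RS (-0.60). Of 13 tested modification genes 9 were higher in RS, among them Pus7 (1.54), Trmt61a (1.57), and Mettl1 (0.98) with its partner Wdr4 (1.36), 1 was lower (Alkbh3 -0.40, which had 0.33 and was called higher in Spc), and the tRNA methyltransferase gene Nsun2 had -0.01 ± 0.07 (adjusted p = 0.922). In Spc, 4 of the 13 were higher (Alkbh1 0.96, Trmt6 0.48, Alkbh3 and Pus10) and none lower. With library size alone Clp1 and Rpp38 lost their calls and Nsun2 was called higher (0.55, adjusted p = 4.7e-05).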

How the data were processed

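The authors mapped small RNA reads (QIAseq miRNA libraries, HiSeq2500) with SPORTS1.1 at default settings to tRNAs of GtRNAdb for mm10, and the deposited tRNA and miRNA tables hold raw counts with a blank for no read, taken here as 0. Whether unique molecular identifiers were used is not stated. The entries of 1 end class can share reads, so rows and their sums are not independent. RNA-seq reads were aligned to GRCm38 with STAR and the authors' TEtranscripts tables hold counts.

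Entries (over the 16 small RNA libraries) and genes (over the libraries of the fit) needed 10 counts in 3 libraries and were fitted with the quasi-likelihood test of edgeR 4.0.16 after TMM scaling, taking only the groups compared, or all 16 libraries for the interaction. The test was two-sided, p-values were adjusted (Benjamini-Hochberg) across every feature of a fit, and an adjusted p of at most 0.05 was called. Shares and ratios were compared by exact permutation tests. Anticodon and amino acid sums were fitted apart by genome and end. DESeq2 1.42.0 and other scalings and filters were alternatives, run in R 4.3.3, with python 3.11.15 and scipy 1.17.1 for the rest. On simulated counts with 185 entries, a share of 0.865 to 0.973 of changed entries was recovered over the 5 comparisons. The share of false calls was 0 to 0.0789, highest for the Smg6-cKO stages. Pairs of libraries of a group differed by 2.22 to 34.5 in chi-square per degree of freedom, so none was a library deposited again. Each was counted as its own sample, though this does not show separate animals.

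Named are the 12 most abundant entries, per comparison up to 5 called entries in each direction with a mean of at least 50 normalized counts, the 4 largest interactions, and others singled out after their values were seen. The marker miRNAs listed for germ (5, of which 4 were found), blood (3), erythroid (2), endothelial (1), smooth muscle (2) and muscle (2) cells were summed as CPM. The members, lists and tests were chosen with earlier results of these data known, and the RNA-seq marker genes, the end ratios and the fits without the libraries high in blood miRNAs were added after the data were seen. Tables of CBs, piRNAs, repeats and transcripts were not used.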

Additional observations from a re-analysis of the deposited data

Results flagged for a closer look

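The effect of Smg6-cKO differed between RS and Spc for 8 of the 72 entries by the interaction term of the edgeR fit over all 16 libraries, on the log2 scale. The difference (RS minus Spc) was -2.62 for Glu-TTC, -2.34 for SeC-TCA, -2.11 for Glu-CTC, -1.94 for Asp-GTC, -1.12 for Gly-CCC and -1.09 for Gly-GCC, the last 2 sharing reads. It was 1.92 for mt-Pro-TGG, which had 6.04 ± 3.77 (SD, n = 3) normalized counts in CTRL RS and 12.2 ± 1.48 in Smg6-cKO RS, and 25.1 ± 5.29 (n = 5) in CTRL Spc and 14.1 ± 5.93 in Smg6-cKO Spc. For the mitochondrial Gly-TCC 3′ end the fitted difference of 6.95 depends on the prior count, since CTRL RS had no count, and the entry passed the count filter only through CTRL Spc. The interactions of Glu-TTC, Glu-CTC, Asp-GTC and Gly-CCC passed the test in 23 of 23 alternatives. No library stood apart from its group in the 50 groups of 5 libraries tested by Dixon's ratio, of which chance would mark about 1 in 20.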

How the results depend on the processing

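Counts of called entries moved with the scaling more than with the test. In Spc (6 called) there were 38 with miRNA scaling, 3 without the count filter and 3 with at least 1 count in every library, and in RS (12 called) 33 with library size alone. Library size alone also gave 23 amino acid sums (8 otherwise) and 34 anticodon sums (10) in RS, and 15 interactions of entries and 15 of anticodon sums (8 otherwise). With 1 entry kept of each near-identical set, chosen after the data were seen, Spc had 1 higher and 3 lower, RS 2 and 7, the CTRL stages 14 and 18, and the interaction 3 and 5. The cause of these changes was not tested.

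Leaving out 1 library at a time gave these ranges of calls. Entries ranged from 2 to 10 in Spc (fewest without CTRL Spc 2 or 4, most without Smg6-cKO Spc 3), 8 to 20 in RS (most without Smg6-cKO RS 2), 23 to 34 between the CTRL stages, 0 to 0 between the Smg6-cKO stages and 7 to 12 for the interaction. Amino acid sums ranged from 2 to 6 in Spc, 4 to 18 in RS (fewest without CTRL RS 1, most without Smg6-cKO RS 2), 21 to 25, 0 to 0 and 4 to 11, and anticodon sums from 2 to 7, 8 to 20, 25 to 34, 0 to 0 and 6 to 11. Processing genes ranged from 4 to 7 in Spc (9 with all libraries, fewest without CTRL 2 or 3) and 29 to 32 in RS. The share of 3′-side counts differed by 2.51 to 4.53 points in Spc, 8.94 to 13 in RS, -12.5 to -8.46 between the CTRL stages and -4.47 to -1.83 between the Smg6-cKO stages. For the CTRL stages no such test can pass 0.05 with 2 RS libraries (smallest p 0.0952, exact), and with 4 Spc libraries the exact p was 0.0571. Without Smg6-cKO Spc 2 and the 2 RS libraries high in blood miRNAs the Spc difference was 4.53.

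Glu-TTC, Glu-CTC, Asp-GTC, Gly-CCC and iMet-CAT were called lower in Smg6-cKO RS under all 13 alternatives (adjusted p up to 0.0202), 1 of which left a single Smg6-cKO RS library and so took the spread from CTRL RS. For the small RNA, no paired analysis was possible because the column names carry no replicate number, and the fit of Spc libraries 1 to 3 was not run for the same reason. For the RNA-seq genes, same-numbered libraries did not all deviate together (correlations -0.226 to 0.354, not all above 0.1), and a replicate block gave 5 processing genes in Spc (9 without it) and 31 in RS (32). The Nsun2 difference in RS, -0.01, was 0.55 with library size alone, and between the CTRL stages Leu-CAG had -0.029 with library size alone and Phe-GAA 0.029 with miRNA scaling. No depth limit beyond the count filter was examined, and 0 or few counts in an entry were not detectable at this depth.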
